A study of Caenorhabditis elegans with 10 samples.

Results

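The genes rsp-1 to rsp-8 of Caenorhabditis elegans encode the SR family of splicing factors. They were taken from the table by gene name, and all 8 were found among the 15106 genes of the deposited table, and all 8 passed the filter on low values that left 13869 genes for testing. RNA from whole young adults was sequenced in 10 libraries. N2 (the wild type), smg-1(rrr59), smg-2(rrr60) and clk-2 mutants each gave 2 libraries from animals grown at 20°C, and N2 and clk-2 each also gave 1 library after animals had spent 3 hours at 25°C. The labels call that move a heat shock, and the methods describe it as the way to inactivate the temperature-sensitive clk-2 mutant, here qm37. A figure legend of the paper calls 20°C permissive for this mutant, while the methods give a lower permissive temperature. The smg alleles came from a mutagenesis screen, and in the list of strains both smg mutants carry the R-1 reporter, a GFP-histone transgene driven by the ubiquitous dpy-30 promoter. That list gives the clk-2(qm37) strain a second reporter, R-2, with the same promoter, and N2 none, so allele and transgene cannot be told apart in any mutant. The header of the clk-2 columns joins parts of the names of different clk-2 alleles, and they were assigned to this mutant because no other strain of the series was left.

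SR proteins bind exonic sequences of pre-mRNA through an RNA recognition motif and recruit the splicing machinery through a domain rich in arginine and serine (the RS domain). Many SR genes, in worms as in mammals, also make splice forms with a premature stop codon, and such forms are removed by nonsense-mediated mRNA decay (NMD). In that pathway the kinase SMG-1 phosphorylates the RNA helicase SMG-2 (UPF1 in mammals), and CLK-2, the worm TEL2, is a factor needed for the stability of the kinase family to which SMG-1 belongs. The comparison of each mutant with N2 asks which SR mRNAs change in animals with a mutant allele of one of these genes. For clk-2 it was tested only at the temperature the legend calls permissive, so the effect of losing CLK-2 was not tested. The paper reports a modest rise of its NMD targets in clk-2 at that temperature, and a stronger one at the restrictive temperature. The deposited table has 1 value per gene, so reads of productive and unproductive splice forms of a gene are summed and cannot be told apart.

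The values are normalized counts, that is, reads on the exons of a gene divided by 1 scaling factor per library. Library totals ran from 3051836 to 14209955 reads, and the shallowest were the first clk-2 library at 20°C (3523986 reads) and the clk-2 library at 25°C. The members were measured with 112 to 3239 reads each, the fewest being those of rsp-8 in the first clk-2 library, where counting error alone amounts to 9.45% of the value. RNA of smg-1 itself stood at 6206 and 5817 normalized counts in the smg-1 mutant against 2222 and 2021 in N2, RNA of smg-2 at 1620 and 1673 in the smg-2 mutant against 1202 and 987, and RNA of clk-2 at 497 and 670.0 in the clk-2 mutant against 598 and 485. RNA of smg-1 was also above N2 in the smg-2 mutant (4933 and 4495) and in the clk-2 mutant at 20°C (4248 and 3783). None of these alleles is stated to remove RNA, so the levels do not check the labels. The tissue, whole animals, was checked with 34 sperm, 17 germline and oocyte, and 15 somatic markers, and 0 of them were at 0 in any library. Sperm markers differed between the strains: 34 of 34 fell in clk-2 (median log2 fold change -1.92), 20 of 34 in smg-1 (-0.78) and 7 of 34 in smg-2 (-0.55), and 10 of 17 germline and oocyte markers fell in smg-1 (-0.71). Of the 15 somatic markers, 5 fell and 1 rose in smg-1 (-0.090), and 3 rose in clk-2 (-0.13). Their summed level stood at 228558 and 219641 normalized counts in N2 and at 149445 and 165539 in smg-1. It was 176437 and 204559.8 in smg-2, and 187899 and 189493 in clk-2 at 20°C, also below both N2 libraries. The summed normalized counts of the sperm markers were 26421 and 33045 in N2, 18294 and 18299 in smg-1, 22041 and 19310.0 in smg-2, and 7776 and 7828 in clk-2 at 20°C. The part of these shifts in the results on the SR genes was not tested, and in such bulk samples fewer cells of a type and less RNA per cell cannot be told apart.

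The annotation of the 8 genes frames what their summed counts can hold. In the Ensembl annotation of WBcel235, the build the study used, rsp-1 lies on chromosome II from 11453362 to 11455864 on the plus strand, and rsp-2 from 11451441 to 11452955 on the minus strand. Their 5′ ends face each other across 406 bases. rsp-4 (II, 5387411 to 5388836, minus strand), rsp-5 (II, 6490165 to 6491340, plus strand) and rsp-7 (II, 10659206 to 10662317, plus strand) share that chromosome. rsp-3 (12686182 to 12687922, minus strand) and rsp-8 (11826418 to 11830974, plus strand) lie on chromosome III, and rsp-6 lies on chromosome IV (7789847 to 7791229, minus strand).

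Splice forms of the kind that NMD is known to act on, with the stop codon more than 50 nucleotides before the last exon junction, are annotated for 4 of the 8 genes. For rsp-1, 3 of 6 transcripts are of this kind, with the stop 439 to 730 nucleotides before the junction, and a further one is listed as non-coding RNA. For rsp-4 they are 2 of 3 transcripts (204 and 149 nucleotides), for rsp-5 3 of 5 (181, 285 and 102 nucleotides) and for rsp-7 2 of 3 (532 and 363 nucleotides). A further form of rsp-5 has the same stop codon as those 3, but in its last exon, with a 3′UTR of 552 nucleotides. It is not counted under this definition. The gene rsp-6 has 1 coding transcript and 2 listed as non-coding RNA, 1 of them with an additional exon of 247 nucleotides (IV, 7790499 to 7790745) and the other with the surrounding intron retained. The remaining genes, rsp-2, rsp-3 and rsp-8, have neither kind, although 1 form of rsp-3 has its stop 26 nucleotides before a junction in the 3′UTR. Thus 5 of 8 members have a transcript of one or the other kind, against 6.21% (842 of 13554) of the protein-coding genes tested.

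**Figure D1:**
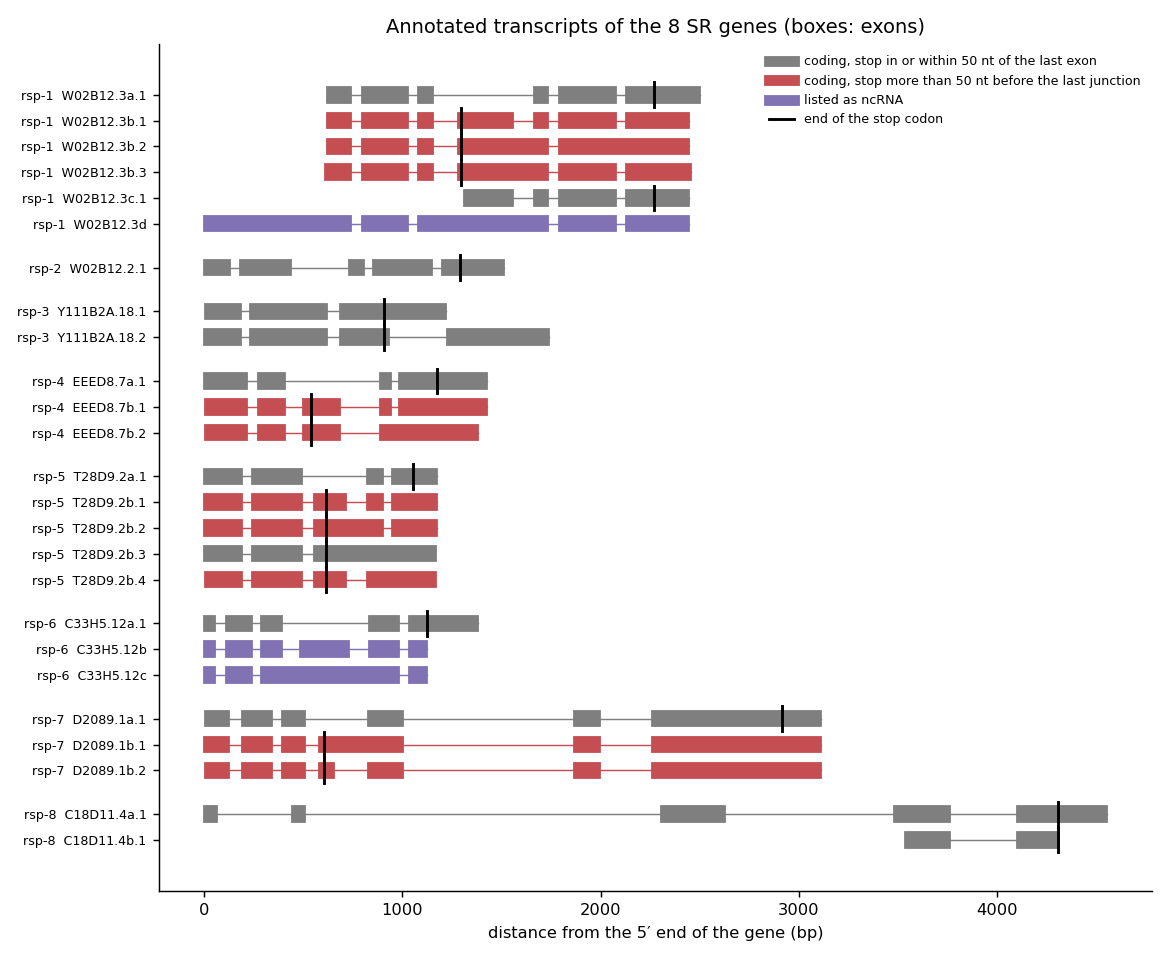
Annotated transcripts of the 8 SR genes, with exons as boxes, introns as lines and the end of each stop codon as a black bar, drawn by distance in bp from the 5′ end of the gene. Red forms of rsp-1, rsp-4, rsp-5 and rsp-7 stop more than 50 nucleotides before the last junction, purple forms of rsp-1 and rsp-6 are listed as non-coding RNA, and rsp-2, rsp-3 and rsp-8 have grey forms only.

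Levels can be compared between genes only per length, and were taken as normalized counts per kb of merged exons. Merged exons include those of early-stop and non-coding forms, which lowers the value of genes that have them. They came to 2347 nucleotides for rsp-1 and 1237 for rsp-6, whose longest coding forms with the stop in the last exon have 1171 and 798. The single form of rsp-2 has 1078. The order of the genes thus depends on this choice of length. In N2 at 20°C, rsp-2 had the highest level at 1056 ± 28.2 per kb (SD, n = 2), followed by rsp-5 (996 ± 4.60), rsp-6 (769.7 ± 87.9), rsp-3 (751 ± 8.31), rsp-4 (576 ± 44.1), rsp-1 (435 ± 4.74), rsp-7 (246 ± 9.95) and rsp-8 (219 ± 20.6). Only rsp-6 and rsp-3, neighbours in this order, overlapped in their 2 N2 libraries. The summed normalized counts of the family stood at 6822 and 6614 in N2, 8673 and 8914 in smg-1, 9839 and 10158 in smg-2, and 6554 and 7313 in clk-2. Both smg mutants were thus above N2 in every library, and the clk-2 libraries lay on either side of N2.

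In the smg-1 mutant 5 of 8 SR genes rose (rsp-1, rsp-2, rsp-6, rsp-7 and rsp-8), 1 fell (rsp-3), and rsp-4 and rsp-5 did not pass the test. These calls are at a Benjamini-Hochberg adjusted p under 0.05 from limma over all genes tested, where 12.3% of genes rose and 9.25% fell. In smg-2 the count was again 5 of 8 up and 0 down, against backgrounds of 8.12% up and 0.981% down. For the decrease, 1 member was below an unadjusted p of 0.05 in smg-2, and edgeR and DESeq2 also called 0. The 5 genes that rose were the same in both smg mutants, where 7.26% of all genes tested rose in both. Both comparisons share the N2 libraries. Over the 8 members, the median of the log2 fold changes stood at 0.46 in smg-1 and at 0.61 in smg-2, beside -0.023 and -0.024 over all genes tested. At the threshold of the study, a 2-fold change with an unadjusted p under 0.05, rsp-1 and rsp-6 were up in smg-2 (6.86% of all genes) and 0 members in smg-1 (8.98%), where edgeR placed 1 past it and DESeq2 0. No member was down at that threshold in smg-1 (1.23%) or smg-2 (0.382%), and in clk-2 0 were up (8.41%) and 0 down (10.3%). In the clk-2 mutant at 20°C, 1 of 8 members (rsp-2) rose and 0 fell, against backgrounds of 12.2% up and 15.8% down, and the median over the members was 0.0096 beside 0.018 over all genes. No member fell in clk-2 at an unadjusted p under 0.05 either, nor by edgeR or DESeq2. Only rsp-2 was thus called up in all 3 mutants, which was the case for 1.71% of genes. The count in smg-1 was 3 without either smg-1 library and that in smg-2 was 3 without the first smg-2 library, and past 2-fold 1 member was left in smg-2 without the second N2 or either smg-2 library and 1 was up in smg-1 without the first N2 or the first smg-1 library. Counted by overlap alone, both smg-1 libraries were above both N2 libraries for 6 members (30.0% of all genes) and below them for 1 (32.6%), both smg-2 libraries above for 7 (25.4%) and below for 1 (26.1%), and both clk-2 libraries above for 1 (29.9%) and below for 0 (28.9%). With 2 libraries a group an exact permutation test cannot give a p below 0.333, so every call rests on the spread that limma shares across genes, and the labels do not say that replicates came from separate cultures.

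**Figure D2:**
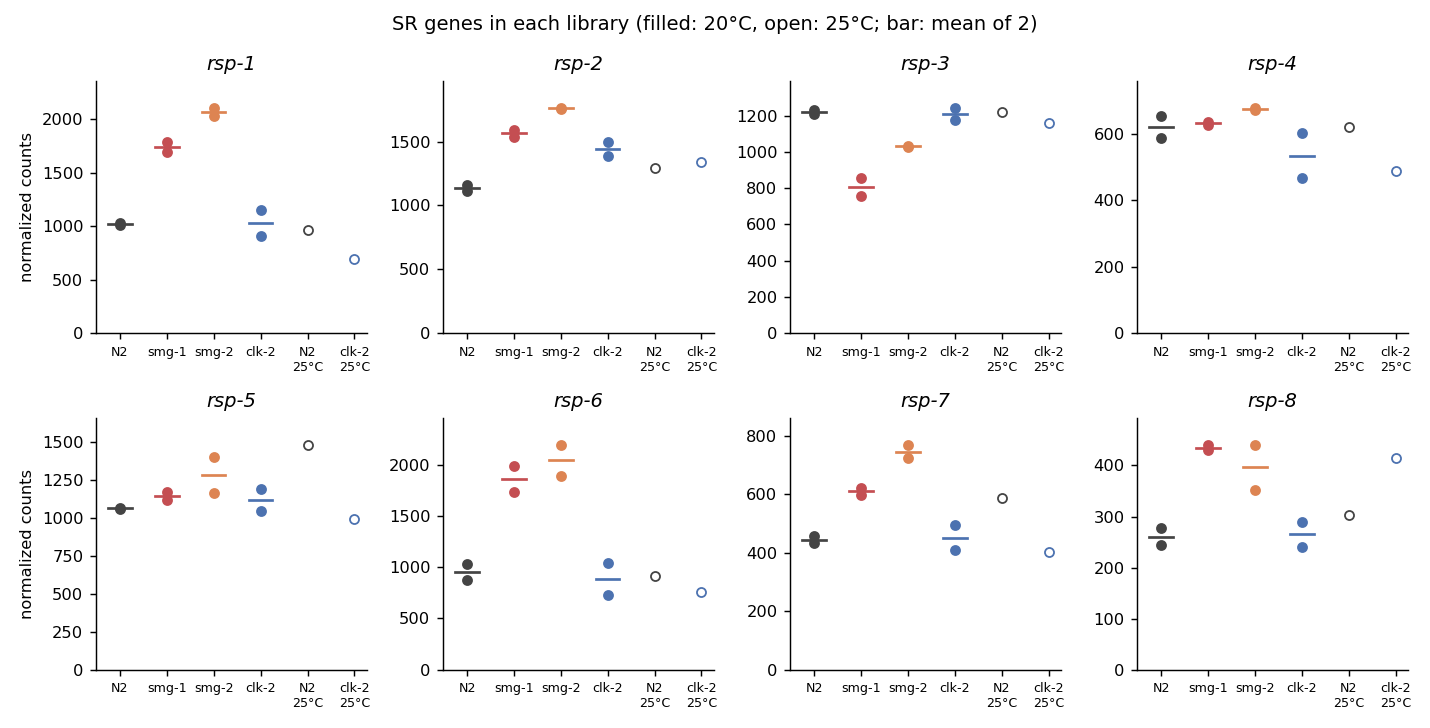
Normalized counts of each SR gene (vertical axes from 0, 1 scale per gene) in each library by group, with filled points at 20°C, open points at 25°C and a bar at the mean of 2 libraries. The 2 smg-1 and 2 smg-2 libraries lie above both N2 libraries for rsp-1, rsp-2, rsp-5 (by the least), rsp-6, rsp-7 and rsp-8 and below them for rsp-3, while clk-2 lies clear above N2 at 20°C for rsp-2 alone.

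**Figure D3:**
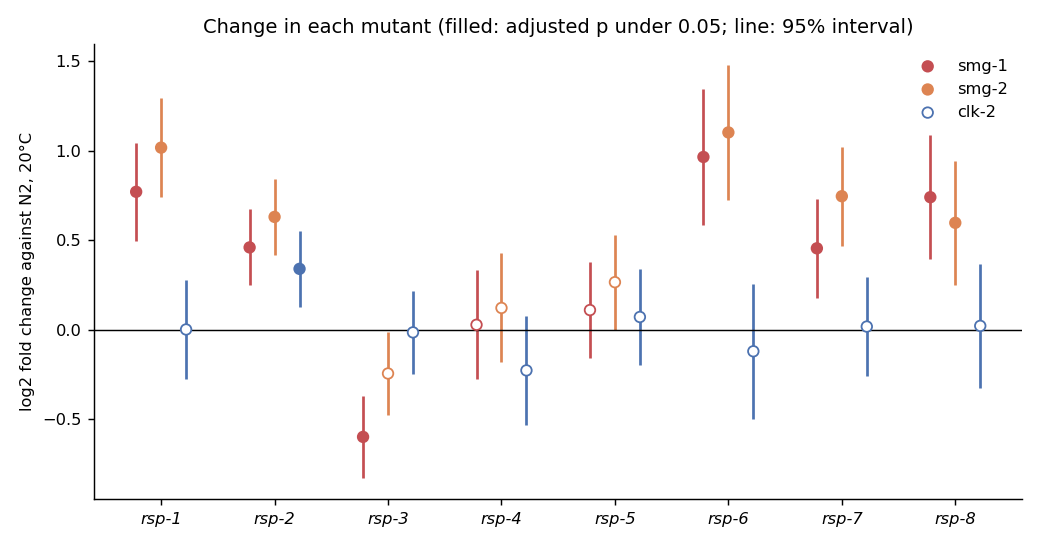
Log2 fold change of each SR gene against N2 at 20°C in smg-1, smg-2 and clk-2, with the 95% interval from limma as a line and filled points for an adjusted p under 0.05. The points of rsp-1 and rsp-6 reach 1.02 and 1.10 in smg-2 and stand at 0.0015 and -0.12 in clk-2, and rsp-3 stands at -0.60 in smg-1.

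The first pair, rsp-1 and rsp-2, encodes SR proteins with more than 1 RNA recognition motif, of the type of human SRSF4 to SRSF6. In N2, rsp-1 stood at 1028 and 1012 normalized counts. It stood at 1694 and 1788 in smg-1, at 2104 and 2026 in smg-2, and at 903 and 1154 in clk-2. Every smg library was above both N2 libraries, and the clk-2 libraries lay on either side of them. The log2 fold change of rsp-1 was 0.77 in smg-1 (SE 0.12, limma adjusted p = 0.00216) and 1.02 in smg-2 (adjusted p = 4.32e-04), a fold of 1.71 and 2.02. In clk-2 it was 0.0015 (adjusted p = 0.996), with a 95% interval from 0.83-fold to 1.21-fold.

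The neighbouring gene rsp-2 stood at 1159.5 and 1117 normalized counts in N2, 1539.6 and 1591 in smg-1, 1764 and 1759 in smg-2, and 1387 and 1496 in clk-2. All 6 mutant libraries at 20°C were above both N2 libraries, and those of smg-2 were the highest. Log2 fold changes were 0.46 in smg-1 (SE 0.095, limma adjusted p = 0.00833), 0.63 in smg-2 (adjusted p = 0.00182) and 0.34 in clk-2 (adjusted p = 0.0243). The call in clk-2 was lost without the second N2 library (adjusted p = 0.0639), without the second clk-2 library (0.0881) and without either smg-2 library (0.0533 and 0.0532), and also in a fit of clk-2 and N2 alone (0.131) or without the trend in limma's prior (0.0774). In smg-1 the call was lost without the first (0.0577) or the second (0.0783) smg-1 library. No early-stop form is annotated for rsp-2.

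The gene rsp-3, the counterpart of human SRSF1 (ASF/SF2) and required for embryonic development in the worm, moved the other way. It stood at 1211 and 1231 normalized counts in N2, 858 and 757 in smg-1, 1027 and 1034 in smg-2, and 1175 and 1243 in clk-2. All 4 smg libraries were below both N2 libraries, with smg-1 the lowest, and clk-2 spanned N2. The log2 fold change was -0.60 in smg-1 (SE 0.10, limma adjusted p = 0.00339), that is, 0.66-fold. In smg-2 it was -0.24, which did not pass the test (unadjusted p = 0.0402, adjusted p = 0.205), and the interval ran from 0.72-fold to 0.99-fold. In clk-2 it was -0.015, with an interval from 0.84-fold to 1.16-fold. The summed germline and oocyte markers stood at 60024 and 48279 normalized counts in N2, 36190 and 34462 in smg-1, 43701 and 46307 in smg-2, and 47346 and 59973 in clk-2, and their part in the values of rsp-3 was not tested.

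The SC35-type genes rsp-4 and rsp-5, of which rsp-4 is the counterpart of human SRSF2, have annotated early-stop forms and did not pass the test in any mutant. rsp-4 stood at 655 and 588 normalized counts in N2, 628 and 637 in smg-1, 678 and 673 in smg-2, and 466 and 603 in clk-2. The smg-1 libraries lay between those of N2, the smg-2 libraries lay just above them, and 1 clk-2 library lay well below. Its log2 fold change was 0.028 in smg-1 (SE 0.14, limma adjusted p = 0.909), 0.12 in smg-2 (0.684) and -0.23 in clk-2 (0.252). Without the second clk-2 library, the change in clk-2 was -0.41 and passed the test (adjusted p = 0.0453), resting then on the shallow first clk-2 library, in which rsp-4 had 180 reads.

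rsp-5 stood at 1064 and 1057 normalized counts in N2, 1172 and 1118 in smg-1, 1164 and 1397 in smg-2, and 1191 and 1043 in clk-2. The smg libraries were above both N2 libraries, but their means exceeded that of N2 by less than the gap between the 2 smg-2 libraries. Log2 fold changes were 0.11 in smg-1 (SE 0.12, limma adjusted p = 0.555), 0.27 in smg-2 (0.234) and 0.071 in clk-2 (0.706). The 95% intervals left room for a rise of up to 1.30-fold in smg-1 and 1.45-fold in smg-2.

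The small SR gene rsp-6, the counterpart of human SRSF3 (SRp20), showed the largest log2 fold change among the members in both smg mutants. It stood at 1029 and 875 normalized counts in N2, 1730.2 and 1985 in smg-1, 1893 and 2194 in smg-2, and 733 and 1040.4 in clk-2. The smg libraries did not overlap with N2, whereas the clk-2 libraries lay on either side of both. Log2 fold changes were 0.96 in smg-1 (SE 0.17, limma adjusted p = 0.00369) and 1.10 in smg-2 (adjusted p = 0.00205), or 1.95-fold and 2.15-fold. In clk-2 it was -0.12 (adjusted p = 0.645), with an interval from 0.71-fold to 1.20-fold.

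The last pair, rsp-7 and rsp-8, encodes SR-related proteins, rsp-8 being of the type of the splicing regulator Transformer-2. rsp-7 stood at 431 and 457 normalized counts in N2, 621 and 597 in smg-1, 769 and 722 in smg-2, and 409 and 494 in clk-2. Both smg-2 libraries were above both of smg-1, which were in turn above N2. Log2 fold changes were 0.45 in smg-1 (SE 0.12, limma adjusted p = 0.0281), 0.75 in smg-2 (adjusted p = 0.00328) and 0.018 in clk-2 (0.934). The call in smg-1 was lost without the first N2 library (0.0851), either smg-1 library (0.160 and 0.118) or either smg-2 library (0.0578 and 0.0575), and without the trend in the prior (0.0744). The call in smg-2 was lost without the first smg-2 library (0.0526).

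The gene rsp-8, with the lowest level per kb in N2, stood at 243 and 278 normalized counts there, 430.1 and 440.2 in smg-1, 441 and 352 in smg-2, and 289.9 and 240.5 in clk-2. All smg libraries were above N2, with the second smg-2 library the closest to it. The log2 fold change was 0.74 in smg-1 (SE 0.16, limma adjusted p = 0.00914), 0.60 in smg-2 (0.0408) and 0.022 in clk-2 (0.937). In smg-1 the call was lost without the first (0.0662) or second (0.0756) smg-1 library. In smg-2 it was lost without the first N2 library (0.119), either smg-1 library (0.0880 and 0.0888) or either smg-2 library (0.347 and 0.0621), and with quantile normalization (0.0542), a separate fit (0.0819) or no trend (0.1004). Of the 5 rises in smg-2, that of rsp-8 was thus the one lost most often.

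Exons of 5 members overlap those of another gene by 5 to 73 nucleotides, and the strand setting of the counting is not stated, so such reads could be lost or moved. The partners were W02B12.1 for rsp-2, elpc-2 for rsp-3, ndx-6 for rsp-4, D2089.8 for rsp-7, whose counts were not used here, and for rsp-1 a pseudogene at 44.0 to 80.2 normalized counts. Of these partners only W02B12.1 passed the test in any mutant (0.41 in clk-2, limma adjusted p = 0.0426), and it shares 5 nucleotides with rsp-2.

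Whether clk-2 differed from the smg mutants was tested directly. The contrast was the change in clk-2 minus the mean change in smg-1 and smg-2, in which the N2 libraries cancel. Its clk-2 libraries came from the temperature called permissive for that mutant. Of the 8 members, 4 were lower in clk-2 (25.6% of all genes) and 1 was higher (20.7%). rsp-6 differed by -1.15 on the log2 scale (SE 0.15, limma adjusted p = 1.77e-04) and rsp-1 by -0.89 (SE 0.11, adjusted p = 1.19e-04). rsp-8 differed by -0.65 (adjusted p = 0.00332) and rsp-7 by -0.58 (adjusted p = 0.00161). rsp-3 was higher in clk-2 by 0.41 (adjusted p = 0.00449). For rsp-2 the difference was -0.20 and did not pass (adjusted p = 0.0651, 95% interval 0.76-fold to 0.99-fold), nor did those of rsp-4 (-0.30, 0.0596) and rsp-5 (-0.12, 0.381). The difference of rsp-4 passed without either N2 library (0.0429 and 0.0418) or without the second clk-2 library (-0.49, 0.0114), and with quantile normalization those of rsp-4 (0.0218) and rsp-2 (0.0141) passed. Past 2-fold, 1 member was down (rsp-6, 15.8% of all genes) and 0 up (6.81%), and without the first clk-2 library rsp-6 differed by -0.90 and was not past it, while without the second 2 members were.

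Between smg-1 and smg-2, 0 of 8 members differed by limma's adjusted p, where 0.447% of all genes were higher in smg-1 and 0.498% lower. At an unadjusted p under 0.05, 2 members were lower in smg-1, and edgeR and DESeq2 called 0. No member differed by 2-fold (1.81% of all genes higher, 0.88% lower). The 2 were rsp-3 (-0.35, unadjusted p = 0.00672, adjusted p = 0.171) and rsp-7 (-0.29, unadjusted p = 0.0406, adjusted p = 0.343). The decrease of rsp-3 passed the test in smg-1 and missed it in smg-2, but the mutants were thus not shown to differ in it.

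Annotation and response could be set side by side. Of the 5 members with an early-stop or non-coding transcript, 3 rose in both smg mutants (rsp-1, rsp-6 and rsp-7), and of the 3 members without one, 2 did (rsp-2 and rsp-8). Among all protein-coding genes tested, 20.9% (176 of 842) of those with such a transcript rose in both, and 5.36% (681 of 12712) of those without. rsp-4 and rsp-5 have such transcripts and did not pass the test in either smg mutant.

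At 25°C there was 1 library per strain and no test. The N2 and clk-2 libraries stood at 963 and 697 normalized counts for rsp-1, 1292 and 1340.4 for rsp-2, 1223 and 1159 for rsp-3, and 620.1 and 489 for rsp-4. The values were 1480.0 and 992 for rsp-5, 909.8 and 758 for rsp-6, 588 and 401 for rsp-7, and 302 and 416 for rsp-8. The clk-2 library was the lower for 6 members and the higher for rsp-2 and rsp-8, with log2 differences from -0.58 (rsp-5) to 0.46 (rsp-8). The median over the members was -0.30, beside -0.067 over all genes tested. None of the 8 moved by 1.5-fold in either direction, and 20.2% of all genes were up and 14.6% down by that much. Those shares include genes down to a mean of 10 normalized counts, and 1 read in this clk-2 library is worth 2.93. They are thus not shares of genes at the level of the members. Against the mean of N2 at 20°C in place of N2 at 25°C, the median over the members was -0.12, and rsp-8, at 0.67 on the log2 scale, was then past 1.5-fold. The fewest reads in the clk-2 library at 25°C were those of rsp-7, with 137.

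Within a strain, the libraries at 25°C were set beside those at 20°C. N2 at 25°C was above both N2 libraries at 20°C for rsp-2, rsp-5, rsp-7 and rsp-8, by 0.18, 0.48, 0.40 and 0.22 on the log2 scale, and below both for rsp-1 (-0.083). clk-2 at 25°C was below both clk-2 libraries at 20°C for rsp-1 (-0.55), rsp-2 (-0.10), rsp-3 (-0.060), rsp-5 (-0.17) and rsp-7 (-0.16), and above both for rsp-8 (0.65). Set beside N2 at 20°C, the clk-2 library at 25°C was above both N2 libraries for rsp-2 and rsp-8, and below both for the other 6 members. The share of all genes lying outside both libraries in these ways was not counted. These positions thus describe the members only and do not set them apart from other genes.

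Other splicing genes were read from lists drawn up with earlier results of these data known. Among SR kinases and further factors with RS domains, 5 of 14 rose and 1 fell in smg-1, and 6 of 14 rose in smg-2, with list medians of -0.069 and -0.061. Over all genes tested, 12.3% rose and 9.25% fell in smg-1, and 8.12% rose and 0.981% fell in smg-2. The largest rises were those of swp-1 (0.995 and 1.20), the worm counterpart of the Drosophila splicing regulator suppressor-of-white-apricot, and of rnp-7 (0.72 and 0.90), a component of the U1 particle, and rnp-5 fell in smg-1 (-0.48). Among regulators of alternative splicing outside the SR family, 6 of 19 rose and 1 fell in smg-1, and 4 of 19 rose in smg-2. There sup-12, a muscle splicing regulator, rose by 1.90 and 2.10, and exc-7, an ELAV-type RNA-binding protein, by 1.22 and 1.23, while tiar-1 fell in smg-1 (-0.41). Of core spliceosome genes, 0 of 32 rose in either smg mutant, also by edgeR, DESeq2 and unadjusted p, 11 fell in smg-1 and 2 in smg-2, with medians of -0.33 and -0.21. Those with the lowest log2 fold changes among the calls were snr-2 (-0.61) and snrp-200 (-0.54) in smg-1, and prp-8 (-0.44) and prp-19 (-0.41) in smg-2. In smg-1 this decrease stood beside that of the germline and oocyte markers given above, and the count of splicing genes called, 24 of 65, was 4 without either smg-1 library, 14 without the first N2 library and 13 without either smg-2 library. In smg-2 the count, 12 of 65, was 7 without the first and 5 without the second smg-2 library.

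In clk-2, where 12.2% of all genes tested rose and 15.8% fell, 1 gene of these lists was called, sym-2, an RNA-binding protein of the hnRNP F/H type, which rose by 1.45 on the log2 scale (limma adjusted p = 0.00411). Without the first N2 library the count was 3, and without the second N2 or the second clk-2 library it was 7. No RS-domain gene was called (1 up and 1 down at an unadjusted p under 0.05) and no core spliceosome gene (0 up and 3 down), with 0 by edgeR and DESeq2. The ribosomal protein genes rpl-3, rpl-7A, rpl-1 and rpl-12, known in this worm for unproductive splice forms as the SR genes are, rose in 3 of 4 cases in smg-1 (12.3% of all genes) and 4 of 4 in smg-2 (8.12%). Their log2 fold changes in smg-2 were 0.61, 1.09, 0.60 and 0.73 in that order. In clk-2 they stood at -0.41, -0.29, -0.50 and -0.31, and the decreases of rpl-3 and rpl-1 passed the test.

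**Figure D4:**
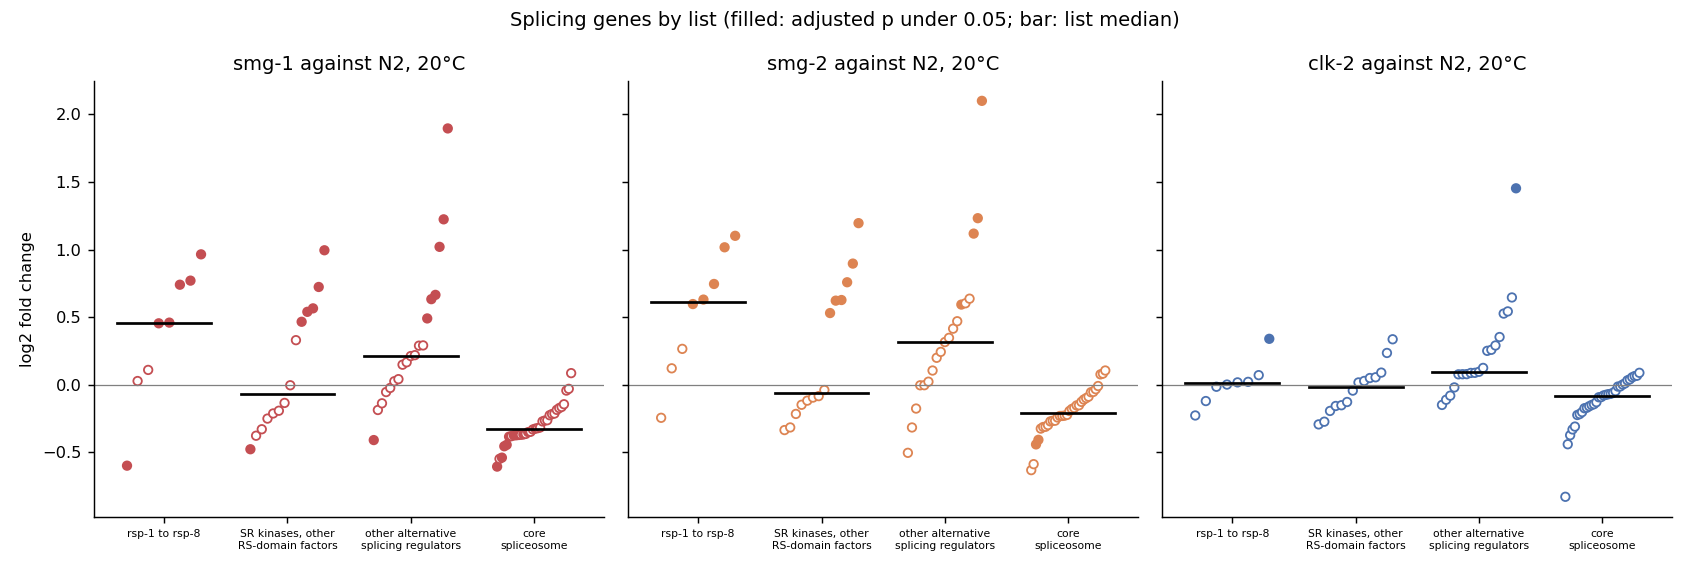
Log2 fold change against N2 at 20°C of the 8 SR genes, 14 SR kinases and other RS-domain factors, 19 other alternative splicing regulators and 32 core spliceosome genes in each mutant, with 1 point per gene, filled for an adjusted p under 0.05, and a bar at the list median. The SR genes have the highest of the 4 medians in smg-1 (0.46) and smg-2 (0.61), the core spliceosome the lowest (-0.33 and -0.21), and in clk-2 the 4 medians lie between -0.085 and 0.096.

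The members also differed in how their levels ran together over the 10 libraries, given as Pearson's r of the log2 values as a description, since the libraries share strain and depth. rsp-1 and rsp-6 ran closest (r = 0.97), then rsp-1 and rsp-7 (0.90) and rsp-6 and rsp-7 (0.88). rsp-3 had a negative r with each of the other 7, from -0.77 with rsp-8 to -0.066 with rsp-5. Of all genes tested, the most similar to rsp-6 was T07F10.5 (0.99) and to rsp-1 clec-150 (0.98), a C-type lectin gene. The most similar to rsp-3 was cgh-1 (0.98), a germline RNA helicase, followed by vha-7 (0.97) and zyg-9 (0.97). For rsp-2 it was ccd-5 (0.97), for rsp-4 sams-4 (0.98), for rsp-7 C48D1.5 (0.97) and for rsp-8 scrm-4 (0.96). rsp-5 had no close match, the highest r with a named gene being 0.83 (chkr-1).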

How the data were processed

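RNA was measured in 10 libraries of whole young adults. According to the methods, the authors removed rRNA, used a ScriptSeq kit, aligned reads with STAR (2.5.4a in the submitters' processing notes) to WBcel235, kept unique matches, and counted them over exons of protein-coding genes. The labels name a TruSeq mRNA kit as well. What the authors deposited is a normalized signal: the reads of each gene divided by 1 DESeq2 size factor per library. In every library 100% of values were whole multiples of 1 step within 0.01, so whole reads were recovered. No column was left without a sample (0).

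A single model of log2(value + 1), with group as its only term, was fitted to all 8 libraries at 20°C for 13869 genes (mean value 10 or more) with limma 3.58.1 (lmFit, then eBayes using a trend; R 4.3.3), and p-values were Benjamini-Hochberg adjusted over all of them. Fold changes are on the log2(value + 1) scale. Libraries were named from the labels. Whether equal replicate numbers pair libraries was checked by correlating the differences between replicates across genes, which ran from -0.27 to 0.096 between groups, so they were not taken as pairs. Alternatives were pseudocounts of 0.1 and 10, no filter or a mean of at least 100, quantile normalization, edgeR 4.0.16 and DESeq2 1.42.0 on the recovered reads, separate fits, no trend, a replicate block and leaving out each library. Crossed replicate numbers were added after seeing the data. The code was tested on simulated data.

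The members and gene lists were chosen with earlier results of these data known. Named were the 8 members, the 4 ribosomal protein genes, in each splicing list the 2 called genes with the largest rise and fall per mutant, and the genes most correlated with a member. Transcripts were taken from Ensembl release 115. Of the lists, sup-46, sap-1 and msp-71 were not used here. No sequence is shown.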

Additional observations from a re-analysis of the deposited data

Results flagged for a closer look

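Clk-2 and smg mutants differed, by the limma contrast of the change in clk-2 minus the mean change in smg-1 and smg-2, in rsp-1 (-0.89 on the log2 scale), rsp-6 (-1.15), rsp-7 (-0.58) and rsp-8 (-0.65), all lower in clk-2, and in rsp-3 (0.41), higher in clk-2. The limma adjusted p ran from 1.19e-04 to 0.00449. Over all genes tested, 25.6% were lower and 20.7% higher in clk-2 by the same contrast, so such differences were widespread. The clk-2 libraries in this contrast came from the temperature called permissive for that mutant, so the effect of losing CLK-2 was not tested. Without the shallow first clk-2 library the differences of rsp-1 and rsp-6 were -0.72 and -0.90 and still passed the test.

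The move to 25°C went in opposite directions in N2 and clk-2 for 3 members. In clk-2, the library at 25°C was below both libraries at 20°C for rsp-2 (-0.10), rsp-5 (-0.17) and rsp-7 (-0.16), while in N2 it was above both (0.18, 0.48 and 0.40). There is 1 library per strain at 25°C, and these differences were not tested. The share of all genes with such opposite moves was not counted, so they are not shown to be particular to these members. Groups of 2 libraries allow no check for outlying samples.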

How the results depend on the processing

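Of the 6 members called in smg-1, rsp-1, rsp-3 and rsp-6 passed the test under every alternative run, and of the 5 in smg-2 rsp-1, rsp-2 and rsp-6 did. Leaving out single libraries gave 3 to 6 members called in smg-1, 3 to 5 in smg-2, 0 to 1 in clk-2, and 5 to 6 for clk-2 against the smg mutants. It gave 0 to 1, 1 to 2 and 0 to 2 members past 2-fold in smg-1, smg-2 and clk-2 against the smg mutants, and 4 to 29, 5 to 13 and 1 to 7 genes of the splicing lists in smg-1, smg-2 and clk-2. Members past 2-fold in smg-1 were 1 with quantile normalization and with edgeR, in place of 0. The call in clk-2 (1 member) became 0 in separate fits and without the trend. Genes of the splicing lists called in smg-1 (24) were 14 in separate fits and 6 without the trend, in smg-2 (12) 7 without the trend, and in clk-2 (1) 0 at a mean of at least 100. The gene called in clk-2, sym-2, has a mean below that filter and was not among the genes tested there. The median of the members at 25°C was -0.12 with N2 at 20°C as the reference. The causes of the other shifts were not tested.

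With the replicate number as a block, 6 members were called in smg-1, 4 in smg-2 (rsp-8 at an adjusted p of 0.0641) and 1 in clk-2, and no other call on a member changed. The splicing genes called were then 17, 10 and 1. With the smg-1 numbers crossed, chosen after seeing the data, 15 splicing genes were called in smg-1, and with the clk-2 numbers crossed 3 in clk-2.

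Changes near 0 turned sign. In clk-2, rsp-3 was at 0.011 with quantile normalization, 0.0067 with edgeR and 0.0070 with DESeq2, and rsp-7 at -0.0060 with quantile normalization. Without single libraries the clk-2 values ran from -0.17 to 0.18 for rsp-1, -0.055 to 0.026 for rsp-3, -0.024 to 0.17 for rsp-5, -0.37 to 0.13 for rsp-6, -0.12 to 0.15 for rsp-7 and -0.11 to 0.16 for rsp-8. The smg-1 value of rsp-4 ran from -0.050 to 0.11, and the difference of rsp-8 between smg-1 and smg-2 from -0.018 to 0.30. None of these passed the test. The low read totals of the first clk-2 library and the clk-2 library at 25°C limit the precision of every clk-2 value.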
